A study of Mus musculus with 6 samples.

Results

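The 37 genes described here encode heat shock proteins and their partners, the cytosolic chaperonin TRiC, the chaperones and disulfide isomerases of the endoplasmic reticulum (ER), and the regulators of the unfolded protein response. They were listed by name, and every probe annotated to one of them was taken. Of the 37 genes, 35 had a probe, and these 35 genes had 62 of the 45263 probes used (19057 genes were named in all). Hsp90ab1 and Hsf1 had no named probe and were not analysed here. The arrays held biotin-labelled cRNA made from total RNA of mature thymic natural killer T (NKT) cells, that is, NKT cells carrying both CD44 and NK1.1, from male C57BL/6 mice. The series concerns DOCK8 in NKT cells, and its arrays compare cells that carry the integrin chain CD103 (3 arrays) with cells that do not (3 arrays). The labels name no gene deletion, treatment or age, and they do not say whether cells of several animals were pooled. The 3 arrays of each population are described as biological replicates.

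Chaperones bind unfolded or newly made proteins and help them reach their folded form. When unfolded proteins accumulate in the cytosol, heat shock factor binds heat shock elements in the promoters of chaperone genes and raises their transcription. When they accumulate in the ER, the sensors IRE1 (gene Ern1), ATF6 and PERK set off the unfolded protein response, in which XBP1, cleaved ATF6 and ATF4 raise the transcription of ER chaperones, of degradation factors and, through ATF4, of Ddit3, which encodes the transcription factor CHOP.

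No gene of the list passed the test between CD103+ and CD103- cells. Of 33 genes measured, 0 had an adjusted p under 0.05 in limma, against 1.38% of all 8999 genes, and of 51 measured probes 0 did, against 1.18% of all 17462 probes. At an unadjusted p under 0.05 there were 2 of the 33 genes, Ddit3 and Pdia6, each with a lower level in CD103+ cells at its probe 1, where the share over all genes was 14.2% (5.23% for lower levels). Among the 51 probes there were 6, of which 4 were higher and 2 lower in CD103+ cells, where the share over all probes was 15.1% (9.04% higher and 6.02% lower). Of the 33 genes, 25 had a positive difference (75.8%, against 56.9% of all genes), and the median log2 difference of the 33, CD103+ minus CD103-, was 0.14, against 0.05 over all genes. With the authors' table as deposited 27 were positive, with a median of 0.22 against 0.16 over all genes. With that table centred 21 were positive, with a median of 0.090 against 0.022. A block on the replicate number lowered the count over all probes from 206 to 83 (0.475%), no probe of the list was called, and 14 of the 51 had an unadjusted p under 0.05, against 17.1% of all probes. Of the 14, 11 were higher and 3 lower in CD103+ cells, against 10.5% and 6.63% of all probes. By gene the blocked count was 5 of 33, against 15.7% of all genes, with Hspa1a, Hspa1b and Dnajb9 higher (10% of all genes) and Ddit3 and Pdia6 lower at probe 1 (5.67%). The 11 higher probes include every measured probe of Hspa1a and Hspa1b. These genes are near-identical copies whose probes may read each other, so the same signal may be counted repeatedly, by probe and by gene.

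Intervals were narrow for most of the list, about as often as over all genes. For 29 of the 33 genes, each at its brightest probe, the 95% interval of the difference lay within 1 log2 unit, a 2-fold change, of 0 (87.9%, against 82.2% of all genes). The 4 exceptions were Hspa1a, Hspa1b, Calr and Ddit3. By probe this held for 39 of the 51 (76.5%, against 77.7% of all probes). Dimmer probes of Sel1l, Tcp1 and Pdia6 were among those whose intervals passed the limit. A gene measured by several probes is given by its brightest probe over the 6 arrays, called probe 1, and levels are normalised log2 signals that compare arrays for one probe and do not compare probes. In 9 of the 33 genes the 3 CD103+ values lay wholly above (6 genes) or wholly below (3 genes) the 3 CD103- values, where this held for 23.2% of all genes (14.5% above and 8.72% below).

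**Figure D1:**
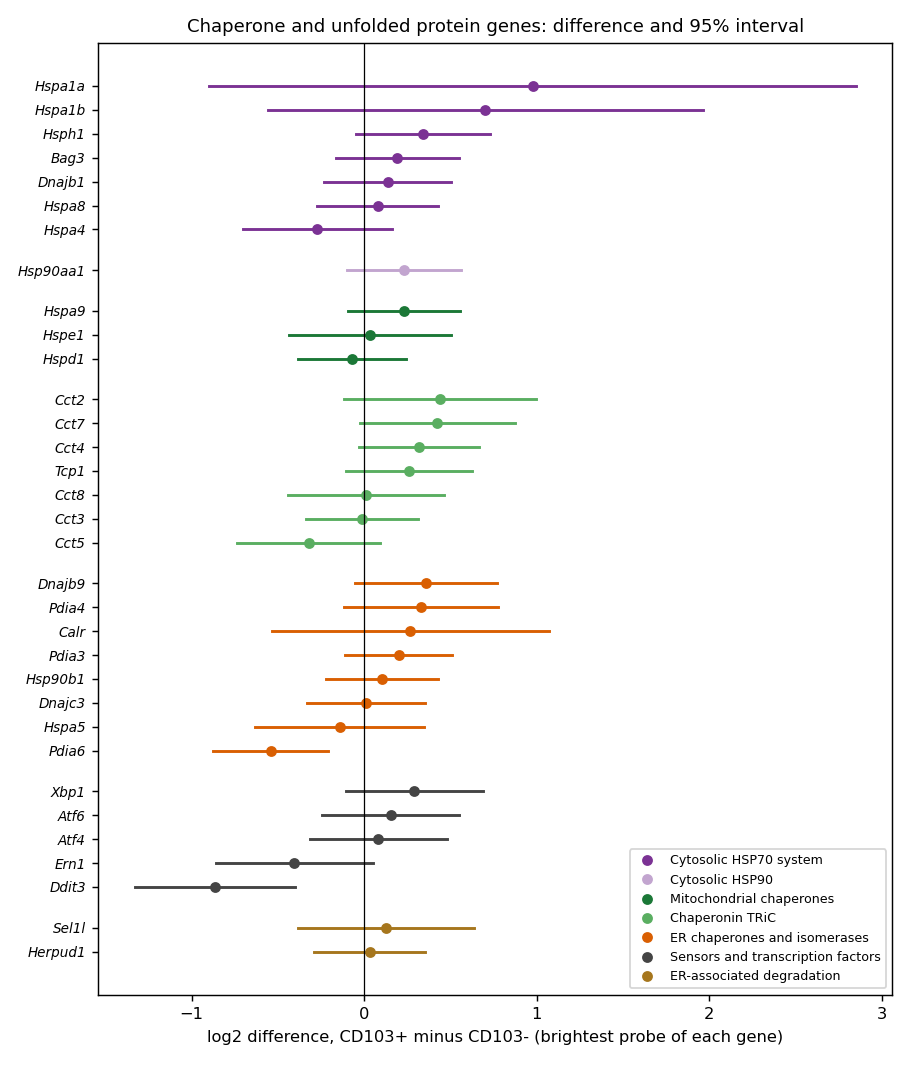
Log2 difference of CD103+ minus CD103- cells (horizontal axis) for the 33 measured genes, grouped by role, with the 95% interval of the limma fit as the bar. The points lie between -0.87 for Ddit3 and 0.98 for Hspa1a, and no gene passed the threshold on the adjusted p.

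**Figure D2:**
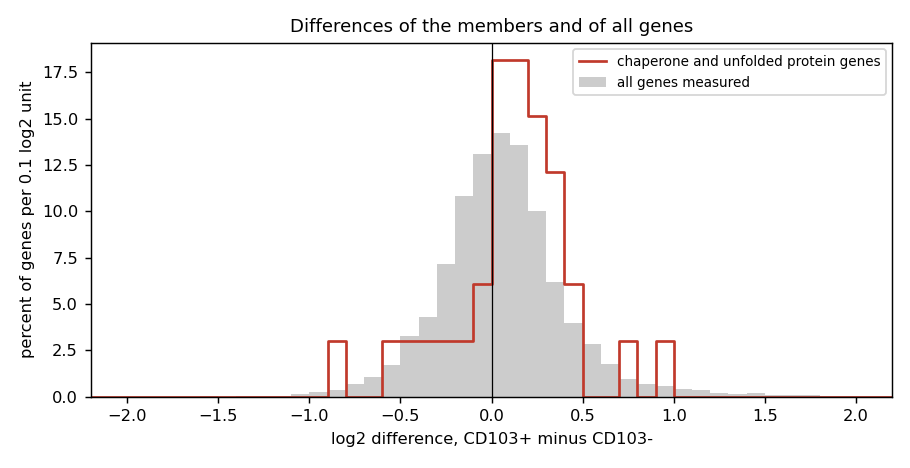
Distribution of the log2 difference, CD103+ minus CD103-, over all 8999 genes and over the 33 measured genes of the list, as the percent of genes in each bin of 0.1 log2 unit; genes beyond 2.2 on the axis are not drawn. The genes of the list have a median of 0.14 and all genes one of 0.05, and the outermost genes of the list are Ddit3 at -0.87 and Hspa1a at 0.98.

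Array brightness and the level of myeloid markers varied with the populations. Mean signals before normalisation were 502 to 826 on the CD103+ arrays, 526 on CD103- array 1 and 277 on both other CD103- arrays. Of the 51 measured probes of the list, 51 were detected on each CD103+ array, and 50, 44 and 48 on CD103- arrays 1, 2 and 3. The CD103 gene Itgae was 26.5-fold higher in CD103+ cells (adjusted p = 9.5e-05 in limma), and all 9 genes of the sort and of T cell identity were detected. Of 15 measured myeloid and macrophage markers, 13 were called higher in CD103+ cells (adjusted p under 0.05 in limma), where 104 of all 8999 genes were. The summed signals of the 15 were 9748 to 10226 against 2486 to 2924, and 11 of the 18 with a probe were detected on no CD103- array. Of 7 cycling cell markers and 2 markers of B and plasma cells, 0 were called and 0 had an unadjusted p under 0.05. Of 13 immediate early genes, 0 were called and 3 had an unadjusted p under 0.05 (2 higher and 1 lower in CD103+ cells). The shares over all genes were 1.38% called and 14.2% at an unadjusted p under 0.05. In bulk RNA, fewer cells of a type and less RNA per cell cannot be told apart. The part of myeloid RNA, of brightness and of these other cells in the differences below was not tested.

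The inducible HSP70 genes, Hspa1a and Hspa1b, varied more between arrays of one population than any other gene of the list. They encode near-identical copies of the stress-inducible HSP70, so a probe of one may also read the other. Their promoter windows are printed to compare the copies around the start of the gene. Sequences of the whole transcripts and of the array probes were not compared. Each window runs from 250 bases before to 50 bases after the start, from RefSeq on GRCm38.p6, and capitals mark the positions where the windows differ. Hspa1a lies at chr17:34972107-34972406 and Hspa1b at chr17:34959189-34959488, both on the minus strand.
Hspa1a: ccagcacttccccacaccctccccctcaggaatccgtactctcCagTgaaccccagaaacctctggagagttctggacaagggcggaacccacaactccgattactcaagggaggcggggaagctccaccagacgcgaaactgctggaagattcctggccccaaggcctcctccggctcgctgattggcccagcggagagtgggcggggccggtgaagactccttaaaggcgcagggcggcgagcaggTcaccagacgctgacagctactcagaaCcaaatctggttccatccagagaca
Hspa1b: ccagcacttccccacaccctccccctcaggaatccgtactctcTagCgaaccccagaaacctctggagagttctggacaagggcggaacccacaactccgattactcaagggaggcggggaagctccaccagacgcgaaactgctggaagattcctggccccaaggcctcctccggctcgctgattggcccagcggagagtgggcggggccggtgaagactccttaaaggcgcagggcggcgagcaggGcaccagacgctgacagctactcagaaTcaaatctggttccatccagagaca

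Compared base by base, the windows differed at 4 of 300 positions. Whether each array probe tells the copies apart was not tested.

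For Hspa1a probe 1 the log2 levels were 8.52, 6.92 and 8.90 on CD103+ arrays 1, 2 and 3, and 7.83, 5.39 and 8.19 on CD103- arrays 1, 2 and 3. Hspa1b probe 1 read 9.16, 7.78 and 8.70 in CD103+ cells and 8.76, 6.77 and 8.00 in CD103- cells. In both populations array 2 was the low one, and the groups overlapped. Hspa1b probe 2 had the widest spread, with 8.78, 6.39 and 8.63 against 7.80, 4.85 and 8.22. Hspa1a probes 2 and 3 had the same low array in both populations, at 5.96 and 5.42 in CD103+ cells and at 5.71 and 5.10 in CD103- cells. On CD103- array 2, Hspa1a probes 1 and 3 and Hspa1b probe 2 were not detected (detection p of 0.089, 0.16 and 0.29). Their levels there are thus background values. Hspa1a probe 3 was also not detected on CD103- array 1, where it read 5.21 (detection p of 0.065).

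The array numbered 2 lay below the mean of the arrays numbered 1 and 3 for all 5 probes in both populations, by -1.14 to -2.32 in CD103+ cells and by -0.67 to -3.16 in CD103- cells on the log2 scale. Both ends of the CD103- range, from Hspa1a probe 3 and Hspa1b probe 2, rest on an undetected value on array 2. Among the other 46 probes of the list, none lay more than 0.5 below in both populations. The standard deviation within populations was higher for each of the 5 probes than for 98.5% to 99.9% of all measured probes, and reached at most 0.529 among the other 46. The differences between populations were 0.98 (SE 0.800) for Hspa1a and 0.70 (SE 0.537) for Hspa1b, with adjusted p of 0.606 and 0.577 in limma. Within each replicate number the CD103+ array was above the CD103- array for all 5 probes, by 0.25 to 1.54. With the replicate block the SE of Hspa1a probe 1 was 0.216 and its adjusted p 0.145, and that of Hspa1b probe 1 was 0.172 with an adjusted p of 0.168, both short of the threshold.

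**Figure D3:**
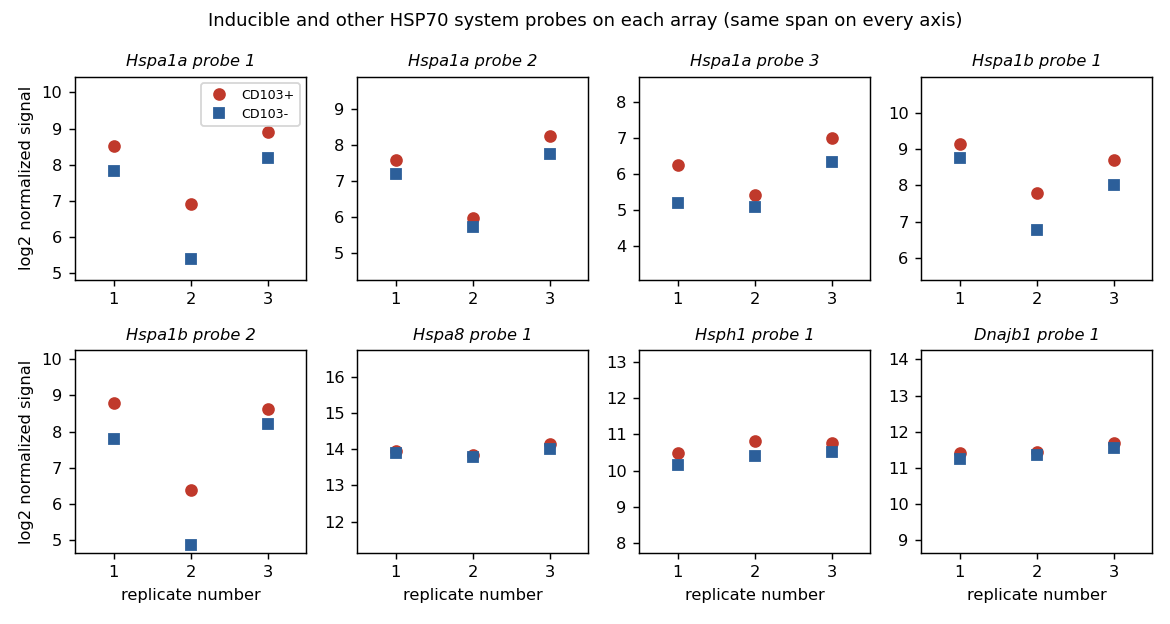
Log2 normalised signal (vertical axis, same span in every panel) against replicate number for the 5 probes of Hspa1a and Hspa1b and for probe 1 of Hspa8, Hsph1 and Dnajb1, with circles for CD103+ and squares for CD103- arrays. Array 2 is the lowest of its population in all 5 panels of Hspa1a and Hspa1b, while the other 3 panels are nearly flat.

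**Figure D4:**
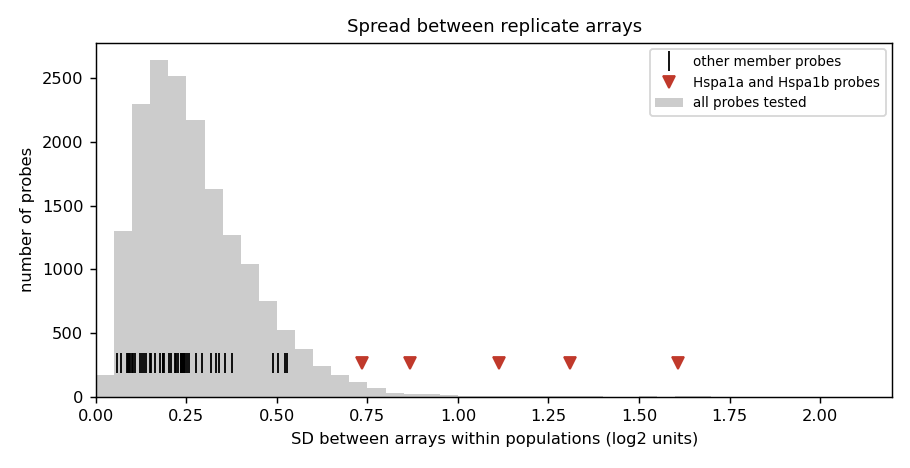
Standard deviation between arrays within the populations, over all 17462 measured probes (histogram) and for the probes of the list (marks). The 5 probes of Hspa1a and Hspa1b lie in the upper tail, and the other 46 reach at most 0.529.

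Over all measured probes, 24 of 17462 (0.137%) were lower by more than 1 on array 2 in both populations, and 4 of the 24 were probes of Hspa1a and Hspa1b. The other named ones belonged to Dntt, Arpp21, Cd8b1, Ly6d, Stab1, Tubb2b, Cdk1, Slc16a5 and Pbk. Dntt, which encodes the terminal transferase of immature thymocytes, read 6.84, 5.20 and 7.17 against 6.82, 5.11 and 7.78. It was detected on 2 of the 3 arrays in each population, and its array 2 values lie near the background. Over a list of 15 genes of immature thymocytes drawn up after these values were seen, 13 had a probe, 7 were measured and 3 were detected on no array. Their summed signal was 2437, 1704 and 2475 in CD103+ cells and 2722, 2490 and 3079 in CD103- cells, and the list holds Dntt, Arpp21, Cd8b1 and Ly6d, already named for their low array 2. The largest value in each sum is the brightest probe of Cd8b1, at 10.35 and 10.97 on array 2 of CD103+ and CD103- cells. The Cd8b1 probe named above is another one, at 8.11 and 9.19 there. Between populations 0 of these 7 were called in limma and 1 had an unadjusted p under 0.05, where the share over all genes was 14.2%. Their part in the pattern of Hspa1a and Hspa1b was not tested.

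The rest of the cytosolic HSP70 system showed small differences. Hspa8, the constitutive HSP70, had 3 probes with values of 13.96, 13.84 and 14.13 in CD103+ cells against 13.89, 13.78 and 14.01 in CD103- cells for probe 1, a difference of 0.08 (SE 0.150). Its probe 3 differed by 0.04, and its probe 2, at 13.87, 13.88 and 14.07 against 13.63, 13.06 and 13.59, by 0.51 (SE 0.191, adjusted p = 0.283 in limma), so that its groups did not overlap while those of the other 2 probes did. With the authors' table centred, the difference of probe 2 was 0.21. Hsph1, the HSP110 nucleotide exchange factor of HSP70, read 10.50, 10.83 and 10.76 against 10.15, 10.41 and 10.50, a difference of 0.34 (SE 0.166, adjusted p = 0.392). Array 2 was not low there. Dnajb1, a J-domain partner of HSP70, differed by 0.14, Bag3, an HSP70 co-chaperone, by 0.19 and Hspa4, another HSP110-type exchange factor, by -0.27, with overlapping groups. Dnaja1, another J-domain partner, had 2 probes below the detection filter, one of which was detected on 1 CD103- array only. Of the 7 measured genes of this system, 6 had a positive difference, with a median of 0.19, and 0 an unadjusted p under 0.05.

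Hsp90aa1, the inducible cytosolic HSP90, read 10.43, 10.57 and 10.31 in CD103+ cells and 10.16, 10.19 and 10.28 in CD103- cells. The groups did not overlap, but the difference was 0.23 (SE 0.141, adjusted p = 0.490 in limma), and that of its probe 2 was 0.06. Among the mitochondrial chaperones, Hspa9 (mortalin, the mitochondrial HSP70) read 12.10, 12.32 and 12.26 against 12.02, 11.94 and 12.04, again without overlap, a difference of 0.23 (SE 0.138, adjusted p = 0.479). Its probe 2 differed by 0.30, with groups that overlapped. Hspd1 and Hspe1, the chaperonin HSP60 and its co-chaperonin HSP10, lie head to head, and their promoter windows share 285 positions on opposite strands. Hspe1 read 10.42, 10.36 and 10.29 against 9.92, 10.61 and 10.45, a difference of 0.03, and Hspd1 probe 1 read 11.36, 11.19 and 11.28 against 11.36, 11.38 and 11.29, a difference of -0.07. Hspd1 probe 2 differed by 0.43 (SE 0.241, adjusted p = 0.454).

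TRiC is the ring-shaped chaperonin that folds actin, tubulin and other cytosolic proteins, and all 7 listed subunit genes were measured. Their median difference was 0.26, with 5 positive and 2 negative values, and 0 had an unadjusted p under 0.05. Cct4 read 12.07, 11.90 and 12.14 in CD103+ cells against 11.61, 11.69 and 11.86 in CD103- cells, a difference of 0.32 (SE 0.148, adjusted p = 0.371 in limma). Tcp1 probe 1 read 11.54, 11.63 and 11.56 against 11.42, 11.08 and 11.46, a difference of 0.26 (SE 0.156). These groups lay apart in the positive direction, as did those of the dimmer Cct7, at 5.85, 6.26 and 5.68 against 5.62, 5.33 and 5.57, whose difference of 0.42 became -0.11 with median scaling. Cct5 lay the other way, with 8.11, 8.36 and 8.11 against 8.37, 8.81 and 8.38, a difference of -0.32 (SE 0.178, adjusted p = 0.443). Subunits of 1 complex thus differed in sign. Cct2 differed by 0.44 (SE 0.236) with 6.96 on CD103+ array 1 and 5.93 to 6.30 on the other 5 arrays, and Cct3 and Cct8 by -0.01 and 0.01. Tcp1 probe 2 had a mean of 8.93 ± 0.058 (SD, 3 arrays) in CD103+ cells and read 8.76, 8.05 and 7.94 in CD103- cells, a difference of 0.68 (SE 0.229, adjusted p = 0.238). Without CD103- array 1 its difference was 0.94 and its adjusted p 0.0249, in a fit that called 4.91% of all probes. With CD103- array 1 as the only CD103- array, the difference of Tcp1 probe 2 was 0.18.

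The ER chaperones include Hspa5 (BiP, the HSP70 of the ER lumen) and Hsp90b1 (GRP94, its HSP90), and 8 of the 9 listed genes of this role were measured. Their median difference was 0.15, with 6 positive and 2 negative values. Hsp90b1 read 12.51, 12.56 and 12.59 in CD103+ cells against 12.38, 12.59 and 12.38 in CD103- cells, a difference of 0.10 (SE 0.138) with a 95% interval from -0.22 to 0.42. Hspa5 read 8.65, 9.10 and 8.58 against 8.83, 9.23 and 8.71, a difference of -0.14 (SE 0.209) with an interval from -0.63 to 0.35. Neither differed beyond the spread between arrays. Dnajc3, which encodes the BiP partner p58IPK, differed by 0.01.

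Calr, the lectin chaperone calreticulin, read 8.81, 8.39 and 8.89 against 7.63, 8.75 and 8.91. Its difference of 0.27 (SE 0.343) came with 1 low array, CD103- array 1, and without that array its sign turned. Canx, calnexin, had 1 probe, which was detected on no array. Pdia3 (ERp57), the disulfide isomerase that works with both lectins, had means of 13.01 ± 0.040 and 12.81 ± 0.070 (SD, 3 arrays each), groups that did not overlap, with a difference of 0.20 (SE 0.131, adjusted p = 0.517 in limma). Pdia4, another disulfide isomerase, differed by 0.33 (SE 0.190), and Dnajb9 (ERdj4, a BiP partner) by 0.36 (SE 0.176) at probe 1 and -0.01 at probe 2.

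Pdia6, the disulfide isomerase P5, was measured by 2 probes of opposite sign. Probe 1 read 6.43, 6.31 and 6.45 in CD103+ cells against 6.88, 7.09 and 6.85 in CD103- cells, a difference of -0.54 (SE 0.143, adjusted p = 0.150 in limma). Probe 2 read 6.02, 6.39 and 6.23 against 5.75, 5.25 and 5.62, a difference of 0.68 (SE 0.187, adjusted p = 0.166), and was detected on 2 of the 3 CD103- arrays. Each probe separated the populations, and the 2 did so in opposite directions, so no direction can be given for the gene. The size of either depended on the processing: probe 2 differed by 0.15 with median scaling, 0.20 without background correction and 0.29 with the authors' table centred, and probe 1 by -0.60, -0.22 and -0.48. Over the 14 genes of the list with several measured probes, the probes had opposite signs in 4, namely Cct3, Dnajb9, Hspd1 and Pdia6.

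**Figure D5:**
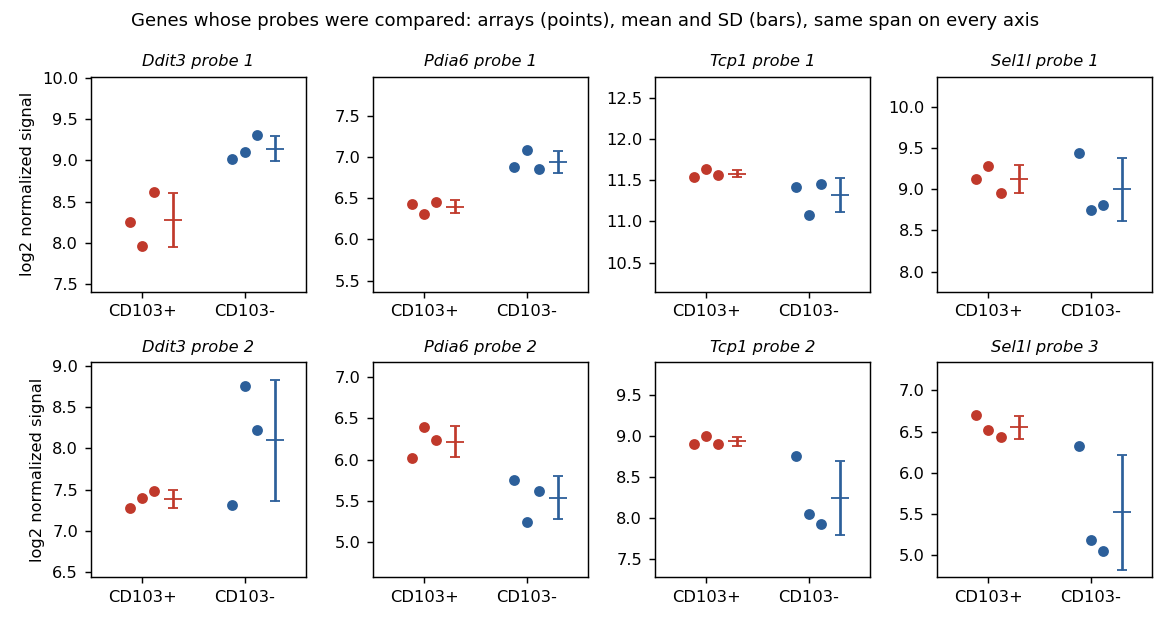
Log2 normalised signal (vertical axis, same span in every panel) of probes 1 and 2 of Ddit3, Pdia6 and Tcp1 and of probes 1 and 3 of Sel1l on each array (points), by population, with the mean and SD of 3 arrays as bars. The probes of Pdia6 separate the populations in opposite directions, with differences of -0.54 and 0.68, while both of Ddit3 are lower in CD103+ cells, at -0.87 and -0.71.

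Among the sensors and transcription factors, the gene nearest to the threshold was Ddit3, which encodes CHOP. Ddit3 probe 1 read 8.25, 7.97 and 8.61 in CD103+ cells and 9.02, 9.10 and 9.31 in CD103- cells, so that every CD103+ array lay below every CD103- array. The difference was -0.87 on the log2 scale (SE 0.198), 1.82-fold lower in CD103+ cells, with an adjusted p of 0.108 in limma and of 0.0320 to 0.466 over 17 alternatives. It was negative within each replicate number, at -0.77, -1.13 and -0.70. Probe 2 read 7.28, 7.39 and 7.49 against 7.31, 8.76 and 8.22, a difference of -0.71 (SE 0.340, adjusted p = 0.380), with CD103- array 1 among the CD103+ values. Of the 17 alternatives, 2 took Ddit3 probe 1 past the threshold, that without background correction (adjusted p = 0.0320, with 1.84% of all probes called) and that with an intensity trend and robust variances (adjusted p = 0.0322, with 2.11% called).

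The other regulators lay closer to 0. Atf4, which drives Ddit3 in the integrated stress response, read 11.97, 12.10 and 11.67 against 11.71, 11.99 and 11.78, a difference of 0.08 (SE 0.169) at probe 1 and 0.07 at probe 2. Xbp1 read 11.34, 11.68 and 11.40 against 11.15, 11.01 and 11.39, a difference of 0.29 (SE 0.170, adjusted p = 0.471 in limma). These arrays do not tell spliced from unspliced Xbp1. Ern1, whose product IRE1 does the splicing, read 7.67, 7.59 and 7.13 against 7.96, 7.66 and 7.99, a difference of -0.41 (SE 0.194, adjusted p = 0.380). Atf6 differed by 0.15 (SE 0.169) and was detected on 1 CD103- array.

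Of the genes of ER-associated degradation, Herpud1, a target of the unfolded protein response, read 12.15, 12.25 and 12.20 against 12.04, 12.23 and 12.23, a difference of 0.03 (SE 0.137) with an interval from -0.29 to 0.35. Its probe 2 also differed by 0.03. Sel1l, the scaffold of the HRD1 ubiquitin ligase, had 3 measured probes with differences of 0.12, 0.37 and 1.03. The third of these read 6.71, 6.52 and 6.43 against 6.33, 5.19 and 5.06 (SE 0.329, adjusted p = 0.221 in limma), and it was detected on CD103- array 1 and on no other CD103- array. Its difference was 0.40 with median scaling, 0.31 without background correction and 0.23 with CD103- array 1 as the only CD103- array. Without that array the difference was 1.43 (adjusted p = 0.0131 in limma), in a fit that called 4.91% of all probes. The brighter probes 1 and 2 had groups that overlapped.

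Genes of the same pathways outside the list gave the same count. Of 101 such genes, 74 were measured and 0 were called in limma, where 1.38% of all genes were called, with 8 at an unadjusted p under 0.05 (6 higher and 2 lower in CD103+ cells), where the share over all genes was 14.2%. Among 16 other regulators and targets of the unfolded protein and integrated stress responses, Mbtps1, the protease that cleaves ATF6, had the smallest p. It read 7.79, 7.58 and 8.11 in CD103+ cells against 8.63, 8.41 and 8.58, a difference of -0.72 (SE 0.177, adjusted p = 0.132) without overlap. Sesn2, a stress-induced sestrin, differed by 0.48 (adjusted p = 0.294). Of 13 other heat shock and J-domain genes, Hspa4l read 6.89, 6.73 and 6.83 against 7.31, 7.44 and 7.15, a difference of -0.49 (adjusted p = 0.196). Hspa2 read 6.80, 6.81 and 6.83 against 6.16, 6.61 and 6.30, a difference of 0.46 (adjusted p = 0.260). Of 18 co-chaperones, Cdc37, the HSP90 partner for kinases, read 6.78, 6.76 and 6.48 against 6.45, 5.43 and 4.77. It differed by 1.13 (SE 0.390, adjusted p = 0.252) and was detected on 1 CD103- array. Without that array its adjusted p in limma was 0.0256, in a fit that called 4.91% of all probes. The difference of Cdc37 was 0.36 without background correction and 0.50 with median scaling. Fkbp5, an HSP90-binding immunophilin, differed by 0.56 (adjusted p = 0.307). Prefoldin and other TRiC genes, other ER folding genes and other degradation genes had medians of 0.17, 0.12 and 0.03 over 6, 11 and 10 measured genes.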

How the data were processed

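Total RNA of both sorted populations was hybridised to Illumina bead arrays. The deposited table holds, per the file headers, a signal intensity and a detection p-value for each probe, not normalised by the authors. A further table deposited by the authors holds log2 values whose method is not given in the sources used here, and it served as an alternative. Of 45281 probes, 18 whose columns were shifted by annotation text were left out; 34874 had 1 gene symbol, 18 several and 10371 none. Intensities were background-corrected and quantile-normalised with neqc (offset 16, background inferred from the detection p). A probe was measured if its detection p was below 0.05 on 3 or more of the 6 arrays, which left 17462. These were fitted together with lmFit and eBayes (limma 3.58.1, R 4.3.3), and two-sided p-values were adjusted by the Benjamini-Hochberg method across the 17462, with 0.05 as the limit. The genes and lists were chosen with earlier results of these data known. Genes of the list with an unadjusted p under 0.05 or non-overlapping groups, and the brightest of each role, are given by array, except Pdia3 and Tcp1 probe 2 in CD103+ cells, given by mean and SD; outside the list, at most 2 genes of each pathway list are named. The number of arrays, 3 in each population, limits the precision. Deviations from the population means correlated at 0.170, 0.125 and 0.305 for arrays of the same number and at -0.231 to 0.0824 for others. No label names pairs, so the fit reported was unpaired. Its SE, intervals and p-values are those given wherever no replicate block is named. The replicate block, which takes the numbers as pairs, was an alternative. The fit was also run on simulated data with independent noise on each array, without the correlation by number. No conclusion about the list is drawn from that run.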

Additional observations from a re-analysis of the deposited data

How the results depend on the processing

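No gene of the list was called under 15 of 18 alternatives, and the calls made under the other 3 are given here. Without background correction and with an intensity trend and robust variances, 1 probe and 1 gene were called, Ddit3, at differences of -0.61 and -0.87. Of all probes, 1.84% and 2.11% were called in these fits. Leaving out each array in turn gave 0 to 3 called probes of the list, and the 3, without CD103- array 1, were Ddit3 probe 2 (-1.10, adjusted p = 0.0397), Sel1l probe 3 (1.43, adjusted p = 0.0131) and Tcp1 probe 2 (0.94, adjusted p = 0.0249), beside Cdc37 (1.58, adjusted p = 0.0256). The fit without CD103- array 1 called 857 of all 17462 probes (4.91%). The cause of each call was not tested. The median difference of the list was 0.14, and 0.089 without background correction, 0.22 with the authors' log2 table, 0.090 with that table centred, and 0.084 to 0.17 when each array was left out. Over all probes, 206 calls became 321 without background correction, 128 with median scaling, 313 with the authors' table, 369 with trend and robust variances, 135 with CD103- array 1 alone (an arm of 1 array, whose spread is assumed to be that of the CD103+ arrays), 28 without array 2 of both populations, 422 at an adjusted p threshold of 0.1, and 52 to 857 when each array was left out. The median difference of all probes was 0.13 with the authors' table, against 0.04 in the values reported. The alternatives with that table centred, without array 2 of both populations and with the threshold of 0.1 were chosen after seeing the data. With the replicate number as a block, 83 probes were called in all, 0 of the list, Ddit3 probe 1 had an adjusted p of 0.111, Hspa1b probe 2 of 0.170 and Mbtps1 of 0.138, and the pairing changed no call among the genes of the list. Of those 83, 82 were among the 206. None of the 59 of 1058 differences that turned sign was called in either fit. With the authors' log2 table, the differences that turned sign were Cct3 probe 1 0.13, Dnajb9 probe 2 0.16, Hspa5 0.053, Hspa8 probe 1 -0.19 and Hspd1 probe 1 0.063. With the authors' table centred on all probes, the differences that turned sign were Atf6 -0.12, Dnajb9 probe 2 0.025, Herpud1 probe 1 -0.063, Hsp90b1 -0.042, Hspa8 probe 1 -0.33 and Hspa8 probe 3 -0.13. With CD103- array 1 as the only CD103- array, the differences that turned sign were Atf4 probe 2 -0.10, Cct8 -0.15, Ddit3 probe 2 0.077, Dnajb9 probe 2 0.26, Hspa1b probe 1 -0.22, Hspa8 probe 3 -0.044 and Sel1l probe 1 -0.31. With median scaling, the differences that turned sign were Atf6 -0.43, Cct3 probe 1 0.15, Cct7 -0.11, Dnajb9 probe 2 0.10, Hspa5 0.026, Hspa8 probe 1 -0.16, Hspd1 probe 1 0.082 and Sesn2 -0.077. Without array 2 of both populations, the differences that turned sign were Atf4 probe 2 -0.035, Cct3 probe 1 0.024, Cct3 probe 3 0.039, Cct8 -0.015, Dnajb9 probe 2 0.21 and Sel1l probe 1 -0.086. Leaving out each array in turn turned the sign of at least 1 difference, with ranges for Atf4 probe 1 -0.012 to 0.20, Atf4 probe 2 -0.018 to 0.16, Calr -0.13 to 0.51, Cct3 probe 1 -0.042 to 0.047, Cct3 probe 3 -0.43 to 0.10, Cct8 -0.10 to 0.17, Dnajb9 probe 2 -0.16 to 0.27, Dnajc3 -0.043 to 0.092, Herpud1 probe 1 -0.032 to 0.063, Herpud1 probe 2 -0.16 to 0.12, Hsp90aa1 probe 2 -0.11 to 0.22, Hspa1a probe 2 -0.20 to 1.03, Hspa1b probe 2 -0.077 to 1.75, Hspa5 -0.30 to 0.010, Hspa8 probe 1 -0.00030 to 0.15, Hspa8 probe 3 -0.0089 to 0.10, Hspe1 -0.17 to 0.17 and Sel1l probe 1 -0.0024 to 0.34. With 3 arrays in each population no exact permutation test can give a two-sided p below 0.1, and dim probes near the background limit the CD103- values.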

Other observations

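Of 13 measured immediate early genes, Fos read 11.80, 11.95 and 11.40 in CD103+ cells and 10.84, 11.21 and 10.65 in CD103- cells, a difference of 0.82 (SE 0.214, adjusted p = 0.148 in limma). Fosb read 7.81, 8.03 and 7.07 against 6.89, 6.54 and 6.15. It differed by 1.11 (SE 0.296, adjusted p = 0.153), also without overlap between the populations, while Junb lay the other way, at -0.36 (SE 0.135, adjusted p = 0.286). Egr1 and Dusp1 differed by -0.19 and 0.15. The summed signal of the 13 genes was 20326 to 23677 in CD103+ and 19674 to 22389 in CD103- cells, so the 2 ranges overlapped.

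Array 2 was low in both populations for some other genes of immature thymocytes beside Dntt, and not for all. Arpp21 read 8.38, 6.62 and 8.07 in CD103+ cells and 8.08, 6.70 and 8.14 in CD103- cells. Rag1, a subunit of the recombinase that rearranges antigen receptor genes, read 7.87, 6.53 and 7.13 against 7.75, 5.29 and 7.54. It was detected on 2 of the CD103- arrays, and its value on CD103- array 2 lies near the background. The brightest probe of Cd8b1 read 10.48, 10.35 and 10.64 against 10.77, 10.97 and 10.87 and did not show the pattern, and Cd4, at 5.96, 5.43 and 5.47 against 5.95, 6.42 and 5.91, was highest on array 2 of the CD103- cells. In the opposite direction, 9 probes were higher by more than 1 on array 2 in both populations.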
